A study of Homo sapiens with 6 samples.

Results

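The replication-dependent histone genes were examined in PC9-BrM3 cells with and without silencing of AKR1B10. They were taken as every protein-coding gene in the expression table whose symbol begins with HIST1H, HIST2H, HIST3H or HIST4H, which gave 71 of 58735 genes. By class, 6 encode H1, 17 encode H2A, 18 encode H2B, 15 encode H3 and 15 encode H4. By cluster, 55 belong to HIST1 on chromosome 6, 12 to HIST2 and 3 to HIST3 on chromosome 1, and 1 to HIST4 on chromosome 12. The class and cluster of each gene were read from its symbol, and all positions are in GRCh38.

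H2A, H2B, H3 and H4 form the core of the nucleosome, around which DNA is wrapped, and H1 binds the DNA that links nucleosomes. The replication-dependent genes are transcribed mainly in S phase, and their typical mRNA has no poly(A) tail and ends just after a conserved stem-loop, which is bound by the stem-loop binding protein SLBP. Some of these genes also give polyadenylated mRNAs that run past the stem-loop, and such transcripts are known from cells that leave the cycle or differentiate.

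PC9-BrM3 was derived from PC9, a human lung adenocarcinoma line, by repeated passage through the brains of immunodeficient mice after injection into the left ventricle. RNA-seq was available for 3 libraries of cells with AKR1B10 knocked down by shRNA (BrM3-shAKR1B10) and 3 libraries of cells with negative control shRNA (BrM3-shNC), whose genotype label is WT. All 6 came from routine culture, both groups carried a lentiviral shRNA vector, and the silenced group used a single shRNA in a single derived line. The mRNA was purified with poly-T beads, so mRNAs without a poly(A) tail were selected against. Nothing in the labels says that replicates were separate cultures, and the p-values measure only the spread between these libraries.

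Between 16964504 and 18709028 reads per library fell on genes, and 1629 to 3660 of them fell on the 71 histone genes. The targeted gene, AKR1B10, had a level of 109 ± 1.52 FPKM (SD, n = 3) with the knockdown, against 782 ± 14.6 FPKM (SD, n = 3) with control shRNA (log2 fold change -2.85, limma, adjusted p = 1.6e-07). FPKM counts fragments relative to gene length and library size, and it sets genes of different length on 1 scale. The library size behind these FPKM was above the reads on genes in the silenced libraries and below them in the controls. It was 1.767e+07 against 17253067 in BrM3-shAKR1B10 replicate 1, and 1.835e+07 against 18709028 in BrM3-shNC replicate 1. The epithelial markers KRT8, KRT18 and KRT19 had group means between 724 and 939 FPKM and EPCAM between 90.2 and 107 FPKM, while the immune marker PTPRC, the endothelial marker PECAM1 and the mesenchymal marker VIM were at or below 0.513 FPKM in every library. A count of 3 reads, the smallest level taken as measurable, equals 0.327 to 0.355 FPKM for a gene of 500 bases, close to the median length of 509 bases among the 71 genes.

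Most of the 71 genes were barely detected. No read was found on 14 of them in any library, and a further 18 had no more than 3 reads in every library. Another 26 had more reads than that but a mean below 1 FPKM, the level required for the test. The remaining 13 genes were tested, and 10 of them were higher in BrM3-shAKR1B10, 0 were lower and 3 were not called. A call needed a Benjamini-Hochberg adjusted p under 0.05 in limma on log2(FPKM + 0.1) and an absolute log2 fold change above 0.5. Among all 13150 genes tested, 5.83% were called higher and 7.45% lower. The median log2 fold change was 1.11 over the 13 histone genes and -0.011 over all genes tested. In bulk RNA, more cells that express a gene and more mRNA per cell cannot be told apart.

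The 10 called genes came from every class. They were HIST1H1C for H1, HIST1H2AC and HIST3H2A for H2A, HIST1H2BK, HIST1H2BD, HIST1H2BC and HIST2H2BE for H2B, HIST1H3E for H3, and HIST1H4I and HIST1H4H for H4. Their fold changes lay between 1.74 and 3.67, and in all 10 the 3 silenced libraries lay above the 3 control libraries. Groups were separated in that direction for 25.5% of all genes tested. HIST1H4H and HIST1H3H reached a mean of 1 FPKM only through the silenced libraries. Of the 11 genes with a control mean of at least 1 FPKM, 9 were higher.

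**Figure D1:**
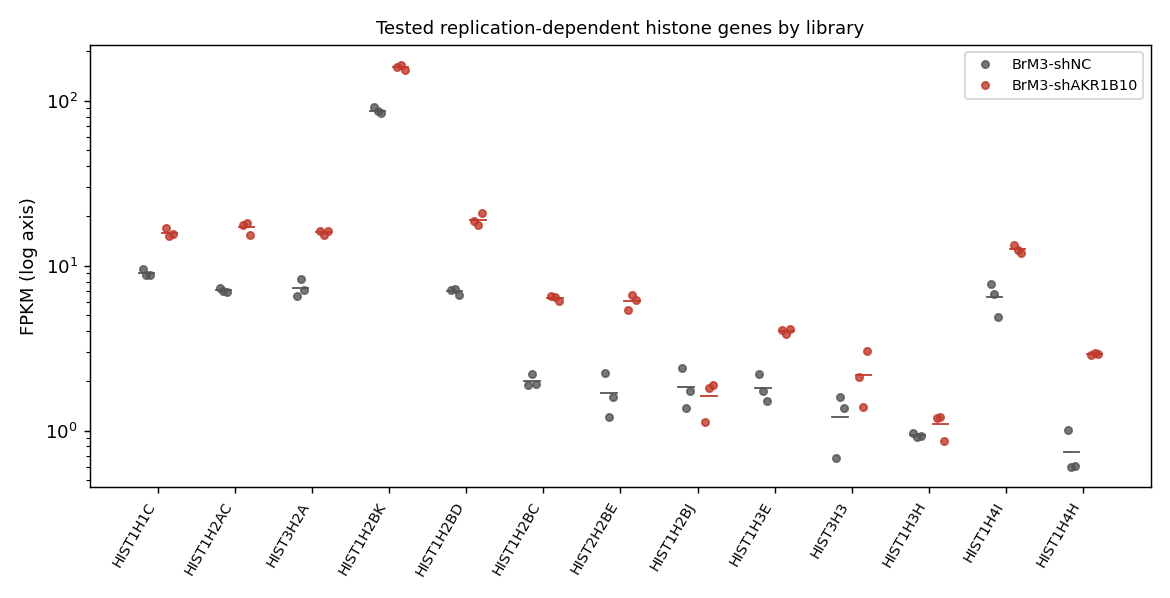
FPKM of the 13 tested histone genes on a log axis, with a point for each library, a bar for each group mean (n = 3), and genes ordered by class. The silenced libraries lie above the control libraries for 10 genes and overlap with them for HIST1H2BJ, HIST3H3 and HIST1H3H.

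The H2B class held the most abundant gene and the largest number of calls. HIST1H2BK (chr6:27146418-27146798, minus strand) had 159, 165 and 153 FPKM after silencing against 91.1, 86.1 and 84.0 FPKM in the control libraries. The groups were far apart relative to their spread, with a log2 fold change of 0.87 (SE 0.044, limma, adjusted p = 3.0e-05). This gene alone made up 57.9% of the summed histone FPKM in the silenced cells and 60.9% in the control cells. In recovered reads its share was 30.3% and 34.3%, since FPKM divides by the length of its model, 381 bases.

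HIST1H2BD (chr6:26158146-26171349, plus strand) had 18.5, 17.6 and 20.8 FPKM in the silenced libraries against 7.13, 7.26 and 6.67 FPKM in the controls. Its log2 fold change was 1.42 (SE 0.070, limma, adjusted p = 2.9e-05), and the lowest silenced library exceeded the highest control by more than the spread of either group. HIST1H2BC (chr6:26114873-26123926, minus strand) rose from 1.89, 2.20 and 1.91 FPKM to 6.51, 6.44 and 6.09 FPKM, a log2 fold change of 1.62 (SE 0.074, limma, adjusted p = 2.6e-05). It had the smallest adjusted p of the 13 tested genes. HIST2H2BE (chr1:149884459-149886652, minus strand), the most abundant gene of the HIST2 cluster, had 5.42, 6.64 and 6.19 FPKM after silencing and 2.24, 1.21 and 1.60 FPKM in the controls. Relative to their mean the controls varied more (SD 0.52 around 1.68 FPKM, against 0.62 around 6.08 FPKM after silencing). The log2 fold change of 1.83 carried an SE of 0.20 (limma, adjusted p = 7.0e-04).

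HIST1H2BJ was the only one of the 5 H2B genes tested on the FPKM scale that was not called. It had 1.13, 1.81 and 1.90 FPKM after silencing against 2.41, 1.37 and 1.73 FPKM in the controls, and the groups overlapped. The log2 fold change was -0.17 (limma, adjusted p = 0.62). Its sign depended on single libraries, being 0.047 without BrM3-shAKR1B10 replicate 1 and 0.030 without BrM3-shNC replicate 1.

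Among H2A genes, HIST1H2AC (chr6:26124145-26139116, plus strand) had 17.7, 18.1 and 15.4 FPKM in the silenced cells and 7.29, 7.05 and 6.90 FPKM in the controls. The difference was a log2 fold change of 1.26 (SE 0.067, limma, adjusted p = 3.7e-05). HIST3H2A (chr1:228456979-228457873, minus strand), the most abundant gene of the HIST3 cluster, had 16.2, 15.3 and 16.3 FPKM against 6.51, 8.26 and 7.16 FPKM. Silencing changed it by 1.12 on the log2 scale (SE 0.085, limma, adjusted p = 1.5e-04), and both genes kept their groups well apart.

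HIST1H1C (chr6:26055787-26056428, minus strand), a linker histone gene, was the only H1 gene tested. Its libraries gave 16.8, 15.1 and 15.5 FPKM after silencing and 9.59, 8.75 and 8.79 FPKM in the controls. The groups did not overlap, and the log2 fold change of 0.80 (SE 0.058, limma, adjusted p = 1.2e-04) was the smallest among the 10 called genes.

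In the H3 class only HIST1H3E (chr6:26224199-26227473, plus strand) was called, with 4.06, 3.83 and 4.15 FPKM against 2.20, 1.74 and 1.51 FPKM. Its log2 fold change was 1.11 (SE 0.13, limma, adjusted p = 8.9e-04). HIST3H3 had 2.12, 1.38 and 3.05 FPKM in the silenced libraries and 0.68, 1.60 and 1.37 FPKM in the controls, and HIST1H3H had 1.19, 1.21 and 0.87 FPKM against 0.97, 0.91 and 0.93 FPKM. Both pairs of groups overlapped, with limma log2 fold changes of 0.80 (adjusted p = 0.13) for HIST3H3 and 0.18 (adjusted p = 0.47) for HIST1H3H. Single libraries moved both values, to 0.47 for HIST3H3 without BrM3-shNC replicate 1 and to 0.33 for HIST1H3H without BrM3-shAKR1B10 replicate 3.

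For H4, which every cluster but HIST3 encodes, HIST1H4I (chr6:27138588-27139881, plus strand) had 13.3, 12.5 and 11.9 FPKM after silencing against 7.75, 6.72 and 4.91 FPKM in the controls. The controls spread widely, and the log2 fold change was 0.97 (SE 0.16, limma, adjusted p = 0.0032), the largest adjusted p of the 10. HIST1H4H (chr6:26277609-26285638, minus strand) had 2.85, 2.97 and 2.89 FPKM against 1.01, 0.60 and 0.61 FPKM. It had the largest log2 fold change of the 13 tested genes at 1.87 (SE 0.20, limma, adjusted p = 5.5e-04). HIST2H2BE was larger with a pseudocount of 1 (1.41 against 1.18), with quantile normalization (1.82 against 1.76) and without BrM3-shAKR1B10 replicate 1 (1.91 against 1.89). HIST1H4I lies on the opposite strand inside the span that RefSeq gives for HIST1H2BK, 8566 bases long, and whether counting used the strand is not given in the sources used here. Without HIST1H4I, 9 of 12 tested genes were higher.

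Reads were also recovered from FPKM and gene length, so that genes with enough reads but a mean below 1 FPKM could be tested. The 6 genes this added have models of 1534 to 5477 bases, long for the family. With at least 10 reads in 3 libraries, 19 histone genes were tested by limma voom, and 14 were higher and 1 lower. In that fit 7.62% of 16389 genes were higher and 7.97% lower. Some members reached 10 reads in only part of the libraries, and among the 14 with at least 10 reads in all 6 libraries, 12 were higher and 0 lower, against 7.04% and 8.05% of 14764 genes. The 4 genes added to the higher group were HIST4H4, HIST2H2BF, HIST1H2BN and HIST1H2BG.

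HIST4H4 (chr12:14767999-14771131), the single gene of its cluster, had 56, 55 and 45 reads after silencing against 19, 23 and 18 reads in the controls (log2 fold change 1.37, voom, adjusted p = 2.7e-04). HIST2H2BF, an H2B gene of the HIST2 cluster, had 32, 27 and 33 reads against 14, 11 and 7 reads (log2 fold change 1.54, voom, adjusted p = 0.0013), and the controls alone would not have passed the filter. HIST1H2BN had 49, 48 and 49 reads against 26, 13 and 23 reads (log2 fold change 1.27, voom, adjusted p = 7.9e-04). These 3 genes had no overlap between groups. HIST1H2BG had 16, 13 and 10 reads against 6, 5 and 5 reads (log2 fold change 1.20, voom, adjusted p = 0.032), and it entered the test only through the silenced libraries.

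HIST1H2AG, an H2A gene, went the other way. It had 12, 26 and 8 reads in BrM3-shAKR1B10 and 37, 44 and 43 reads in BrM3-shNC, with no overlap, and its log2 fold change was -1.54 (voom, adjusted p = 0.0013). The silenced libraries alone would not have passed the filter. HIST1H3G had 12, 5 and 15 reads against 11, 12 and 8 reads, groups that overlapped (log2 fold change -0.055, voom, adjusted p = 0.94).

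**Figure D2:**
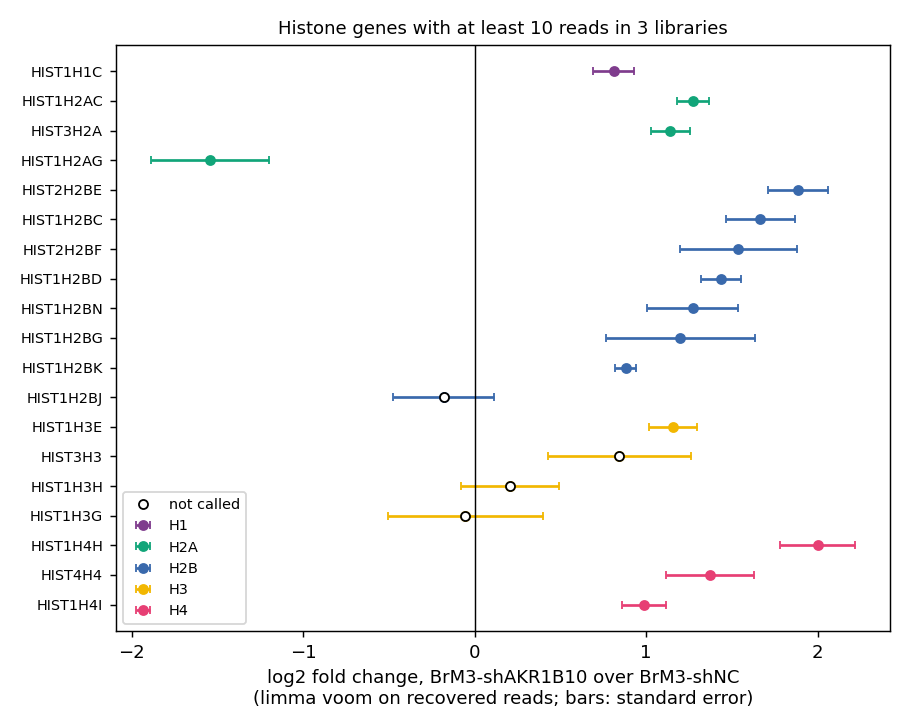
Log2 fold change of BrM3-shAKR1B10 over BrM3-shNC (limma voom on recovered reads, bars are standard errors) for the 19 histone genes with at least 10 reads in 3 libraries, grouped by class, open points not called. 14 genes lie to the right of 0 and were called, HIST1H2AG lies at -1.54, and HIST1H2BJ, HIST3H3, HIST1H3H and HIST1H3G were not called.

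The other 52 genes did not reach 10 reads in 3 libraries and are given by their reads only. In the H1 class these were HIST1H1A, HIST1H1T, HIST1H1E, HIST1H1D and HIST1H1B. HIST1H1T had 7 reads in the 3 silenced libraries together, 6 of them in BrM3-shAKR1B10 replicate 2, and 0 in the controls, and the groups overlapped. Of the H2A genes, HIST1H2AE had 26 reads against 10 and HIST2H2AC had 7 against 20. Among H2B genes HIST3H2BB had 32 reads against 12 and HIST1H2BF 21 against 10, while HIST1H2BE had 12 against 21 and HIST1H2BL 4 against 10. Among H4 genes HIST1H4E had 22 against 11. No H3 gene of this group had more than 9 reads in a group of 3 libraries. Over all 71 genes, in FPKM, the silenced libraries lay above the controls without overlap in 20 and below them in 3, which were HIST1H2AG, HIST2H2AC and HIST1H3J. Of the 71 genes 57 had any read, and among all 31583 genes with a read 15.9% lay above and 15.0% below without overlap. The 20 include near-identical copies with few reads, such as HIST2H2AA3, HIST2H2AA4 and HIST2H4A, and in 2 of the 20, HIST2H2AA4 and HIST2H3D, the groups touched in reads.

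**Figure D3:**
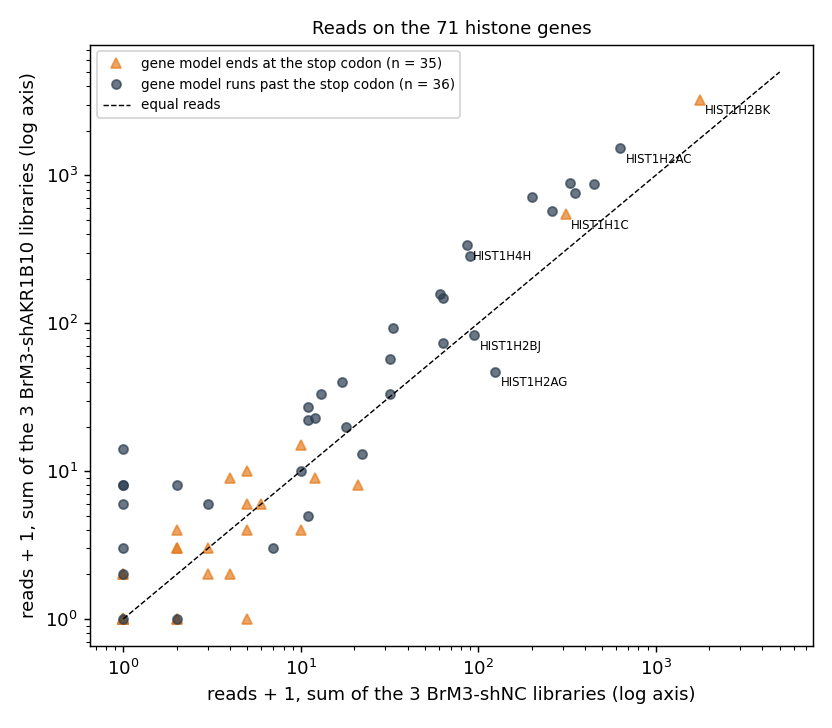
Reads plus 1 on each of the 71 histone genes, summed over the 3 BrM3-shNC libraries (horizontal log axis) and the 3 BrM3-shAKR1B10 libraries (vertical log axis), with triangles for the 35 genes whose model ends at the stop codon. HIST1H2BK and HIST1H1C are the only triangles with more than 20 reads in either group.

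Summed over all 71 genes, the family had 276, 278 and 272 FPKM after silencing against 149, 143 and 138 FPKM in the controls, a ratio of 1.93. Without HIST1H2BK the ratio was 2.08. By class it was 1.77 for H1, 2.04 for H2A, 1.92 for H2B, 1.67 for H3 and 2.07 for H4, and for H2B without HIST1H2BK it was 2.48. The 58 genes below the level for the test had 11.5 ± 2.19 FPKM in sum after silencing against 8.72 ± 0.85 FPKM in the controls (SD, n = 3 each), so the sums rest on the tested genes, and they were given no test.

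By cluster the ratio was 1.89 for HIST1, 2.63 for HIST2, 2.13 for HIST3 and 2.59 for HIST4. HIST1 spans several blocks of genes separated by gaps of more than 200000 bases. The block with 32 genes, which holds HIST1H1C, HIST1H2BC, HIST1H2AC, HIST1H2BD, HIST1H3E and HIST1H4H, had a ratio of 2.30. In it 6 of 6 tested genes were higher on the FPKM scale, HIST1H4H having passed the filter only through the silenced libraries, and 7 of 8 were higher in the read fit, where HIST1H2BG likewise passed only through the silenced libraries and HIST1H3G was not called. The block of 5 genes around HIST1H2BK had a ratio of 1.80, which was 1.54 without HIST1H2BK, and holds HIST1H2BJ and HIST1H2AG as well as HIST1H4I. In the block of 16 genes HIST1H3H was the only one tested on the FPKM scale and was not called, while HIST1H2BN was higher in the read fit. Its summed level was 4.28 ± 0.76 FPKM (SD, n = 3) in the silenced cells and 3.95 ± 0.52 FPKM (SD, n = 3) in the controls, a difference smaller than the spread. The first block, HIST1H2AA and HIST1H2BA, had no reads.

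H2A and H2B genes often lie head to head and share a promoter region. By the starts of the GENCODE models, 12 divergent pairs within 1000 bases were found among the 71 genes. All joined H2A with H2B except HIST1H3J with HIST1H2BO, and HIST1H2BO was paired with HIST1H2AM too. The HIST1H3J pair rests on a model of 2725 bases, against 512 in RefSeq, with 44.6% of its exon bases on HIST1H2AM. HIST1H2BN and HIST1H2AK were not counted, as the HIST1H2BN model, 28039 bases against 542 in RefSeq, covers HIST1H2AK. Their RefSeq promoter windows nearly coincide (chr6:27838319-27838618, plus strand, and chr6:27838326-27838625, minus strand). In HIST1H2BC and HIST1H2AC, whose starts are 219 bases apart, both partners were higher. In several other pairs nearly all reads lay on 1 partner. HIST1H2BK had 3246 reads in the silenced libraries together and 1776 in the controls, while its partner HIST1H2AH had 5 and 5. HIST2H2BE had 714 reads against 199, while HIST2H2AC had 7 against 20. HIST3H2A had 763 against 349, and HIST3H2BB had 32 against 12. In the pair HIST1H2BJ and HIST1H2AG neither partner was higher.

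The stem-loop that ends a typical replication-dependent histone mRNA was searched in the annotated mRNAs as a left arm GGNNCT, a loop TNTN and a right arm AGNNCC with all 6 pairs matched. It was found in 31 of the 71 genes and in 0.203% of 19684 protein-coding genes overall. In 35 genes, 0 of which had a match, the annotated model ends at the stop codon and leaves out the place of the stem-loop. A stretch of 26 bases around it is shown for 6 called genes, which together carry the 5 forms found, with the 16 bases of the stem-loop in capitals, read 5′ to 3′ on the strand of the gene.
HIST1H2AC (chr6:26124664-26124689, plus strand): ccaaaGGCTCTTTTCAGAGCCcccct
HIST2H2BE (chr1:149886183-149886208, minus strand): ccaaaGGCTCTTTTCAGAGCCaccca
HIST1H2BD (chr6:26158582-26158607, plus strand): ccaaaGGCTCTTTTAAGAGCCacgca
HIST1H3E (chr6:26225591-26225616, plus strand): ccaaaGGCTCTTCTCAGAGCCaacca
HIST1H4H (chr6:26285126-26285151, minus strand): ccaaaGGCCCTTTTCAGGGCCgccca
HIST1H4I (chr6:27139649-27139674, plus strand): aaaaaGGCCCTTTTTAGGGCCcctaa
The form seen in HIST1H2AC and HIST2H2BE was the most frequent, with 17 of the 31 genes.

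The annotated mRNA often ran well past this element. In 22 of the 71 genes it continued for more than 100 bases, among them HIST2H2BE with 1729 bases after the stem-loop, HIST1H3E with 1862 and HIST1H2AC with 1114. In 35 genes the annotated model instead ended at the stop codon, so that reads from the 3′ untranslated region could not be counted, and HIST1H2BK and HIST1H1C were the only tested genes of this kind. Of the 25 genes whose model was spliced or ran more than 100 bases past the stem-loop, 10 were tested and 8 were higher, and of the other 46 genes 3 were tested and 2 were higher. How much of the reads came from polyadenylated forms was not tested.

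RefSeq promoters (GRCh38.p14, 250 bases before to 50 after the start) were matched for 61 of the 71 genes. The octamer ATTTGCAT or its complement ATGCAAAT, which is the binding motif of the POU factor POU2F1 and is known from H2B promoters, was found in 9 of 13 H2B and 11 of 16 H2A promoters, in no H1, H3 or H4 promoter, and in 1.77% of 35116 promoters overall. Stretches of 30 bases are shown for 3 H2B genes, of which HIST1H2BK and HIST2H2BE were higher and HIST1H2BJ was not called, with the octamer in capitals, read 5′ to 3′ on the strand of the gene.
HIST1H2BK (chr6:27146886-27146915, minus strand): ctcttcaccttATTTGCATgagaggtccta
HIST1H2BJ (chr6:27132824-27132853, minus strand): ctcttcaccttATTTGCATaagcgattcta
HIST2H2BE (chr1:149886710-149886739, minus strand): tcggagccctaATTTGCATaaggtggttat
The octamer lay 49, 47 and 46 bases before the start in HIST1H2BK, HIST1H2BJ and HIST2H2BE. In some divergent pairs the same site was counted for both partners, so the H2A and H2B counts overlap. These pairs were HIST2H2BE with HIST2H2AC, HIST1H2BJ with HIST1H2AG, HIST1H2BA with HIST1H2AA, HIST1H2BM with HIST1H2AJ and HIST1H2BO with HIST1H2AM. HIST1H2BD and HIST3H2A had no octamer in the window and were higher, so the called genes included promoters with and without it. The motif CCAAT was in 13 of 13 H2B, 16 of 16 H2A, 6 of 6 H1, 13 of 13 H3 and 3 of 13 H4 promoters and in 34.6% of all promoters.

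Several histone genes are near-identical copies. For 15 genes at least 50% of the 150-base windows of the mRNA also occurred in another gene, including HIST2H2AA3 and HIST2H2AA4, HIST2H3A and HIST2H3C, HIST2H4A and HIST2H4B, and HIST1H4J and HIST1H4K. None of them was tested, and none had more than 12 reads in a library, so their values are uncertain. HIST2H2AA3 had 13 reads in the silenced libraries together and 0 in the controls, and HIST2H2AA4 had 7 and 1. None of the 10 called genes shared a window or an exon base with another annotated gene. Of the genes added by the read fit, HIST2H2BF shared 10.25% of its windows and had 5.54% of its exon bases on FCGR1A, and HIST1H2BN shared 4.46% of its windows and had 7.25% of its exon bases on HIST1H2AK and HIST1H2AL.

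A list of factors that transcribe and process histone mRNA was set beside the family. Of 38 such genes tested, 0 were higher and 4 were lower, a share near the 7.45% of all genes called lower, with a median log2 fold change of -0.10. SLBP, which binds the stem-loop, had 29.8 ± 0.85 FPKM after silencing against 32.9 ± 0.85 FPKM in the controls (SD, n = 3 each), with a log2 fold change of -0.14 (limma, adjusted p = 0.020), below the fold required for a call. NPAT, the coactivator of histone gene transcription, had a log2 fold change of -0.040 (limma, adjusted p = 0.74), and CASP8AP2 of the histone locus body one of -0.17 (limma, adjusted p = 0.069). The 4 lower genes were CCNA2 (-1.04), a cyclin of S and G2 phase, the processing factors CPSF2 (-0.57) and LSM11 (-0.52), and the octamer-binding factor POU2F1 (-0.52). LSM11 lost its call when any 1 of the 6 libraries was left out (limma, adjusted p up to 0.086), and the list then had 2 or 3 lower genes. POU2F1 fell short of the fold limit without BrM3-shAKR1B10 replicate 2 (-0.49) and CPSF2 without BrM3-shNC replicate 1 (-0.49), and with a pseudocount of 1 only 1 of the 4, CCNA2, was called.

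The variant histone genes encode histones that take the place of the canonical ones in some nucleosomes, and most are expressed outside S phase too. Of 10 tested, 1 was higher and 4 were lower, with a median log2 fold change of -0.34. Among all genes tested 5.83% were higher and 7.45% lower. H2AFJ had 10.8, 10.4 and 8.97 FPKM in the silenced libraries and 5.28, 6.03 and 7.28 FPKM in the controls (log2 fold change 0.70, limma, adjusted p = 0.0050). The lower genes were CENPA (-1.45), the centromeric H3 variant, the linker variant H1FX (-0.95), H2AFX (-0.83) and H2AFZ (-0.77). Among 25 histone chaperones 0 were higher and 4 were lower, which were the CENPA chaperone HJURP (-1.04), MCM2 (-0.75), ANP32E (-0.69) and SSRP1 (-0.56).

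Of the S phase genes, all 25 tested had a log2 fold change below 0, 12 were called lower and the median was -0.42. Among all genes tested 7.45% were called lower and the median was -0.011. PRIM1, a primase subunit, fell by 1.06 on the log2 scale, TYMS by 0.91 and RRM2 by 0.88, the last a subunit of ribonucleotide reductase. The part of S phase gene levels in the histone values was not tested. SLBP is in the S phase and histone mRNA lists, and MCM2 in the S phase and chaperone lists.

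**Figure D4:**
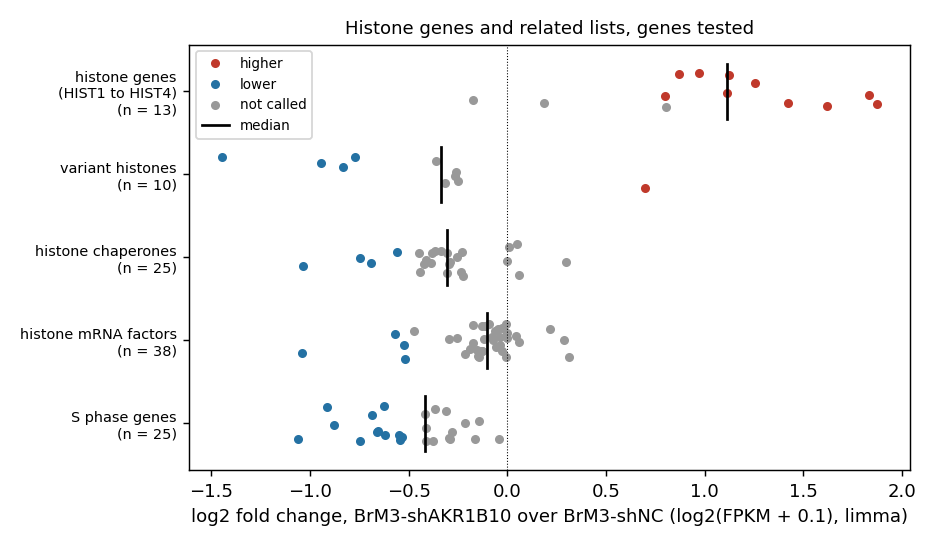
Log2 fold change of BrM3-shAKR1B10 over BrM3-shNC for each tested gene (limma on log2(FPKM + 0.1)), with red for higher, blue for lower and grey for not called, and a black line at the median of each list. The 13 histone genes have a median of 1.11, and the variant histones, chaperones, histone mRNA factors and S phase genes have medians of -0.34, -0.31, -0.10 and -0.42.

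Other transcripts without a poly(A) tail and other genes near HIST1 were set beside the family. A list of 22 non-polyadenylated RNA symbols had a summed level of 8.02 to 14.9 FPKM in the silenced libraries and 12.03 to 22.3 FPKM in the controls, ranges that overlapped, and neither of the 2 genes tested was called. Among 16 tested neighbours of the HIST1 cluster, 0 were higher and 1, the zinc finger gene ZNF165, was lower (-0.64), with a median log2 fold change of -0.16. Of 19 histone pseudogenes in the table, 2 were tested and 0 were called.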

How the data were processed

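The authors purified mRNA with poly-T beads, aligned reads with HISAT2 2.0.5 and counted them per gene with featureCounts 1.5.0-p3, and deposited FPKM per gene and library for 58735 genes, with replicates not pooled. The genome build and the strand setting of the counting are not given in the sources used here. Gene identifiers were matched to GENCODE 29 (GRCh38), and start and end were equal for 58724 of them. FPKM times gene length gave whole reads for 100% of values (tolerance 0.01). From these values genes with a mean of at least 1 FPKM were compared by limma 3.58.1 (R 4.3.3, mean-variance trend) after adding 0.1 and taking log2, which makes fold changes of low genes too small. P-values were adjusted by Benjamini-Hochberg over 13150 genes. Calls required an adjusted p below 0.05 with a log2 fold change beyond 0.5 in size. A further fit, chosen after seeing the data, used limma voom with TMM scaling on the recovered reads of genes with at least 10 reads in 3 libraries. Floors of 3 reads cover counting error only.

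Genes and lists were chosen with earlier results of these data known. Every tested histone gene could be named, and from other lists the called genes and the main histone mRNA factors. Alternatives included pseudocounts of 1 and 0.01, other filters or none, TPM, quantile normalization, no trend, voom, a replicate block, other fold limits and each library left out in turn. Same-numbered libraries did not deviate together (correlations -0.0155, 0.0039 and 0.0038). Scripts were tested on simulated data, run in Python 3.11.15.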

Additional observations from a re-analysis of the deposited data

How the results depend on the processing

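The higher histone genes numbered 10 and the lower ones 0 with pseudocounts of 1 and 0.01, TPM, quantile normalization, no trend, voom on the same genes, no limit on the fold change, and in all 6 fits that left out 1 library. In a fit blocked by replicate number (replicate block), 10 were higher and the largest adjusted p among them was 0.0062 in limma. This fit ended the call of LSM11 (adjusted p = 0.073) and called RN7SL2, an RNA of the signal recognition particle, lower (adjusted p = 0.010), whose log2 fold change of -0.62 ranged from -1.03 to -0.26 when 1 library was left out. Without a filter 13 of 57 were higher, and with a log2 fold change above 1 there were 7. With a mean of at least 5 FPKM only 6 genes were tested and 6 were higher, since the stricter filter leaves fewer genes. The share of all genes called was not counted without a filter, at a log2 fold change above 1 or at 5 FPKM. With at least 10 reads in 3 libraries, in limma and in voom, 14 of 19 were higher and 1, HIST1H2AG, was lower, and over genes with at least 10 reads in all 6 libraries 12 of 14 were higher and 0 lower. The log2 fold change of HIST1H2BJ ranged from -0.36 to 0.047 when 1 library was left out, and was 0.047 without BrM3-shAKR1B10 replicate 1 and 0.030 without BrM3-shNC replicate 1, and the cause was not tested. The count of lower histone mRNA factors ranged from 2 to 3 when 1 library was left out, and was 2 without BrM3-shAKR1B10 replicate 2 or BrM3-shNC replicate 1. It was 1 with a pseudocount of 1 or a mean of at least 5 FPKM, and 3 with TPM or the replicate block. Under quantile normalization 9 S phase genes were lower. Without HIST1H4I, an alternative chosen after seeing the data, 9 of 12 histone genes were higher. With no limit on the fold change 12 histone mRNA factors, 9 variant histones, 20 chaperones and 23 S phase genes were lower, and 2 factors, 1 variant histone and 1 chaperone were higher, against 23.1% of all genes tested lower and 19.4% higher. With a log2 fold change above 1 each of these lists had 1 lower gene and 0 higher. Low counts limit the family: 32 genes had at most 3 reads in every library, so a change in them was not detectable. Whether depth, poly-T selection, short gene models, overlap with other genes or low expression kept these counts low was not tested.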
